A study of Mus musculus with 21 samples.

Results

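Voltage-gated sodium channels, voltage-gated calcium channels and HCN channels carry much of the inward current that sets how brain cells fire, and 44 genes for their subunits are described here. The 44 were taken by name from the 21872 gene symbols of the deposited count tables: every symbol that starts with Scn and a number, or with Cacn followed by a, b or g, and the symbols of the HCN family. The rule reads names only, although the set was proposed with earlier results of these data known. They comprise 10 sodium channel alpha genes, 4 sodium channel beta genes, 10 calcium channel alpha1 genes, 4 alpha2delta genes, 4 calcium channel beta genes, 8 gamma genes and 4 HCN genes. All 44 are protein-coding genes in the GENCODE M21 annotation of GRCm38, the assembly also called mm10.

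A sodium channel is built around an alpha subunit that forms the pore and starts the action potential, with beta subunits that adjust its gating and placement. A calcium channel is built around an alpha1 subunit, whose type decides whether it opens at strong depolarization (L-, P/Q-, N- and R-type) or near rest (T-type), and alpha2delta and beta subunits bring it to the membrane. Most gamma genes encode TARPs, which escort AMPA glutamate receptors to synapses and are calcium channel subunits mainly by family name, while HCN channels open on hyperpolarization and set pacemaking and dendritic integration. In rodent forebrain, Scn3a is known as an embryonic alpha gene and Scn1a and Scn8a as genes that come up after birth.

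The series compares brain from mice given water (control) with brain from mice given trientine (TETA), a copper-chelating drug; the labels call the TETA condition copper-deficient. Poly(A) RNA was sequenced at embryonic day 18.5 (E18.5) from 6 control and 6 TETA libraries, and at 7 weeks after birth from 5 control and 4 TETA libraries. The protocol text names prefrontal cortex of male mice at 7 weeks only, while the tissue field reads brain throughout; the region and sex at E18.5, the strain, the dose, the route and the length of dosing are not given in the sources used here. The labels do not say that the libraries come from separate animals, so p-values measure the spread between these libraries, which may in part be technical.

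Depth was 14678265 to 24308555 counts per library over the 21 libraries. The 6 pan-neuronal marker genes summed to 6503 to 6891 CPM (counts scaled to library size and composition) at E18.5 and to 8086 to 8596 CPM at 7 weeks, and none of the neuronal, astrocyte and cortex marker genes was at 0 in all libraries of any group. In the E18.5 table, 1940 genes were at 0 in control replicate 1-1 and held only multiples of 11 elsewhere, and these were divided by 11. Of the channel genes only Scn4a, the skeletal muscle sodium channel gene, was among them, and after division it held 0 to 2 counts per E18.5 library. Control replicate 2 at 7 weeks held 100.2 CPM of 4 skeletal muscle genes against 9.61 to 13.1 in the other 7-week libraries, and it was also the highest for Scn4a (11 counts) and for Cacna1s, the skeletal muscle L-type gene (42 counts). Control replicate 4 at 7 weeks held 62.7 CPM of 5 choroid plexus genes, against at most 6.04 in the other 8.

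At 7 weeks TETA brain differed from control in 6 of the 39 channel genes that could be tested. Scn4b, a sodium channel beta gene, fell by 47.6%, Cacng4, a TARP gene, fell by 22.9%, Cacna2d3, an alpha2delta gene, fell by 19.1%, and Cacna1i, a T-type calcium channel gene, fell by 8.31%. Cacna1g, another T-type gene, rose by 17.6% and Cacna1d, an L-type gene, rose by 12.2%. The test was edgeR's quasi-likelihood fit, with p-values adjusted by Benjamini-Hochberg over all 14240 genes tested, of which 9.96% passed an adjusted p of 0.05, 5.67% higher and 4.28% lower. Values of the TETA and control libraries did not overlap for 6 channel genes, where 11.3% of all genes tested did not overlap. The median log2 fold change of the 39 was -0.05, against 0.00 over all genes, and 24 of the 39 lay below 0. In bulk tissue, fewer cells of a type and less RNA per cell cannot be told apart, for these and all later differences.

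**Figure D1:**
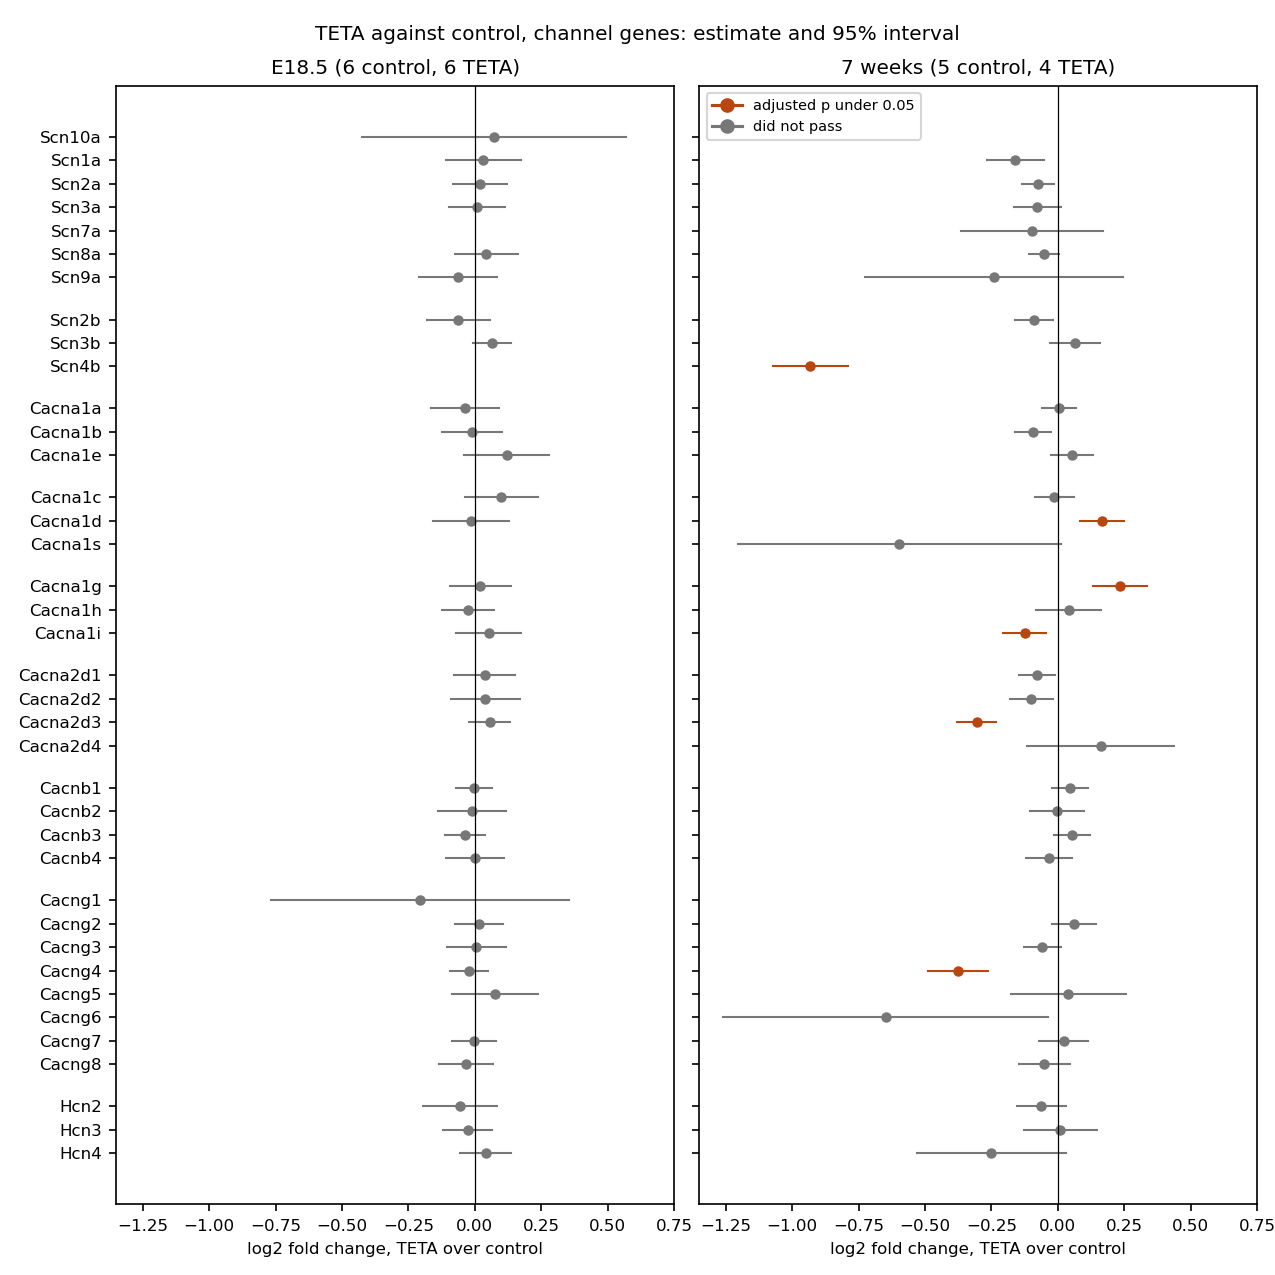
Log2 fold change of TETA over control for the channel genes drawn, with 95% intervals, at E18.5 (left) and 7 weeks (right), grouped by subfamily; coloured points passed an adjusted p of 0.05. The 6 genes that passed all lie in the 7-week panel, and Scn4b at -0.93 lies farthest from 0 among them.

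The largest of these differences was in Scn4b, whose product binds the sodium channel pore and is known for resurgent current. The 5 control libraries read 302, 304, 340.5, 305 and 281 CPM, and the 4 TETA libraries 170.2, 165, 128 and 175 CPM. Every TETA library lay below every control library, with TETA replicate 3 the lowest. The log2 fold change was -0.93 (SE 0.067, adjusted p = 1.82e-08). Scn2b, which lies 8.3 kb from Scn4b on chromosome 9 and on the same strand, had a log2 fold change of -0.09 (adjusted p = 0.111) and Scn3b of 0.07 (0.404), and neither passed. Within the summed CPM per kb of exon of the 4 beta genes, Scn4b took 14.5% ± 1.07 in control (SD, n = 5) and 8.18% ± 0.788 in TETA (n = 4).

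Scn4b is abundant in striatal projection neurons, and markers of that tissue moved in the same libraries. All 15 striatum marker genes were lower in TETA at 7 weeks, with log2 fold changes of -3.02 to -0.67 and a median of -1.34. Their summed level was 1257 to 1553 CPM in the 5 control libraries and 580.1 to 730.2 CPM in the 4 TETA libraries, and none of the 15 was at 0 throughout a group. Adora2a, the adenosine receptor gene of indirect-pathway striatal neurons, averaged 32.4 ± 4.74 CPM over the 5 control libraries and 6.40 ± 2.04 CPM over the 4 TETA libraries (SD). With the striatum score as a further term in the fit, none of the 6 genes passed (adjusted p 0.951 to 0.999), nor did any gene of the whole table (701 had an unadjusted p under 0.05). The log2 fold change was then -0.17 for Scn4b (SE 0.18), -0.26 for Cacna2d3 (SE 0.14) and -0.48 for Cacng4 (SE 0.21). Cacna1g (-0.26), Cacna1d (-0.085) and Cacna1i (0.043) changed sign. The score has no overlap between the groups, so striatum content and TETA cannot be told apart in that fit. The part of striatum content in the 6 differences was otherwise not tested.

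**Figure D2:**
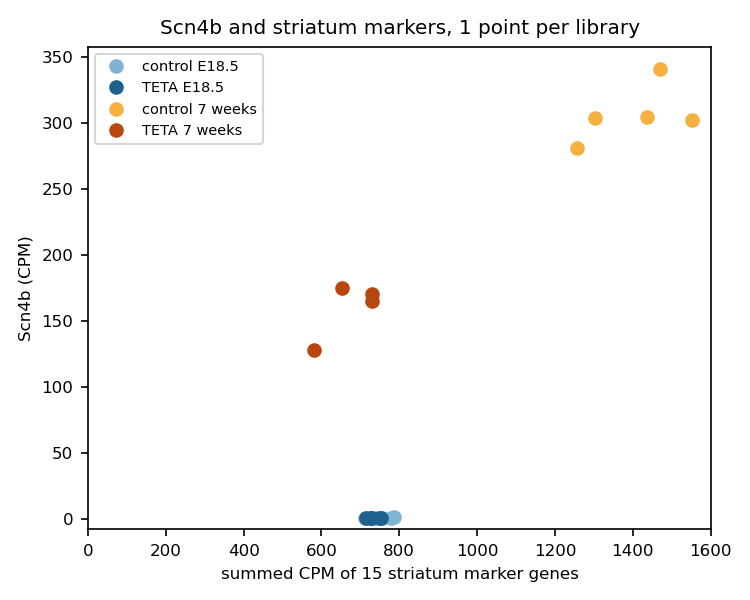
Scn4b in CPM against the summed CPM of 15 striatum marker genes, with 1 point per library coloured by group. At 7 weeks the TETA libraries lie at 580.1 to 730.2 CPM of the markers with Scn4b at 128 to 175 CPM. The E18.5 libraries have marker sums of 711 to 786, which overlap only the upper end of that range, with Scn4b under 1 CPM. Between the control ages 11 of the 15 markers passed higher and 3 lower, so equal sums do not mean equal marker levels.

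In the other marker lists fewer genes passed at 7 weeks. Among cortical projection neuron genes, 3 of 11 fell (Emx1, Rorb and Bcl11b) and 0 rose, and among interneuron genes 1 of 7 fell (Gad2). Astrocyte genes fell in 2 of 5 cases (Slc1a2 and Aldh1l1) and oligodendrocyte precursor genes in 1 of 4 (Pdgfra). Of 4 choroid plexus genes tested, with a median log2 fold change of -0.93 and a lowest of -3.62 (Ttr), Clic6 passed, at 1.497 ± 0.552 CPM in the controls and 0.487 ± 0.213 CPM in TETA (SD). The control mean of this list includes replicate 4, at the 62.7 CPM given above. Among the 6 pan-neuronal genes Snap25 rose and Map2 fell. No thalamus, microglia, oligodendrocyte, blood, vessel smooth muscle or skeletal muscle gene passed, with median log2 fold changes of -0.06, -0.04, -0.11, -0.08, 0.02 and -0.61, the last over 2 genes. The part of these shifts in the channel gene differences was not tested.

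None of the sodium channel alpha genes passed at 7 weeks. All 7 tested had log2 fold changes below 0, from -0.24 (Scn9a) to -0.05 (Scn8a), also with DESeq2 and without composition scaling, but with the striatum score in the fit Scn1a and Scn2a had values above 0 (0.06 and 0.04). The nearest to the threshold was Scn1a, whose loss in interneurons is the known basis of Dravet epilepsy. It read 243, 264, 289, 269 and 244 CPM in control and 229.6, 227, 214 and 258 CPM in TETA. The groups overlapped through TETA replicate 4, and the log2 fold change was -0.16 (SE 0.051, adjusted p = 0.0527). It passed when TETA replicate 4 (-0.21, adjusted p = 0.0109), control replicate 1 (-0.19, 0.0287) or control replicate 5 (-0.18, 0.0260) was left out. It also passed with DESeq2 (-0.16, 0.0344), a block for replicate number (-0.18, 0.0383), library quality weights (-0.17, 0.0371) and no filter (-0.16, 0.0330). It did not pass when any other single library was left out, or without composition scaling (-0.14, 0.0756). Scn2a, the main alpha gene of young excitatory neurons, had a log2 fold change of -0.07 (adjusted p = 0.118). Among the alternative fits it passed only without control replicate 5 (-0.09, adjusted p = 0.0383).

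Of the calcium channel alpha1 genes, 2 T-type genes and 1 L-type gene passed, 2 higher and 1 lower, where 5.67% of all genes tested were called higher and 4.28% lower. Cacna1g, the T-type gene of thalamic relay and deep-layer cells, read 116, 114, 112, 119 and 125 CPM in control and 126, 128, 148 and 145 CPM in TETA. The highest control lay just under the lowest TETA library, and the log2 fold change was 0.23 (SE 0.048, adjusted p = 0.00316). Cacna1i, the T-type gene with slow kinetics, read 219.8, 218, 217, 226 and 205 CPM in control and 192, 198, 186 and 214 CPM in TETA. Here the groups overlapped through TETA replicate 4 and control replicate 5, and the log2 fold change was -0.13 (SE 0.038, adjusted p = 0.0428). The call for Cacna1i was lost when any of control replicates 1 to 4 or TETA replicates 1 to 3 was left out (adjusted p 0.0702 to 0.166) and without composition scaling (0.0705). The third T-type gene, Cacna1h, had a log2 fold change of 0.04 (adjusted p = 0.727), so the TETA share of Cacna1g among the 3 T-type genes was 33.7% ± 1.72 against 29.0% ± 1.17, and that of Cacna1i 50.1% ± 2.35 against 55.2% ± 1.78 (SD, n = 4 and 5; not tested).

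Cacna1d, an L-type gene that opens at lower voltages than its relative Cacna1c, read 70.0, 70.6, 70.1, 71.0 and 69.4 CPM in the control libraries. In TETA it read 74.98, 75.4, 83.9 and 78.1 CPM, all above the controls. The log2 fold change was 0.17 (SE 0.039, adjusted p = 0.00948), and without TETA replicate 3 it was 0.13 (adjusted p = 0.0541). Exons of Chdh on the opposite strand cover 4.67% of its exon length, and the strand setting of the counting is not given in the sources used here. Cacna1c, the main cardiac and neuronal L-type gene, had a log2 fold change of -0.01. The P/Q-type gene Cacna1a and the R-type gene Cacna1e had values of 0.01 and 0.05, and the N-type gene Cacna1b had -0.09 (adjusted p = 0.0749), which passed with DESeq2 (0.0453) and without TETA replicate 3 (-0.12, 0.0350).

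Among alpha2delta genes, Cacna2d3 was at 125, 124, 129, 128 and 119.6 CPM in control and at 98.4, 98.6, 101 and 104 CPM in TETA. The groups were separated by more than the range within either, and the log2 fold change was -0.31 (SE 0.035, adjusted p = 1.04e-05). Cacna2d2 also did not overlap, with control libraries at 48.9, 49.3, 49.9, 49.0 and 49.3 CPM and TETA libraries at 44.9, 47.2, 45.2 and 45.2 CPM. Its log2 fold change of -0.10 missed the threshold (adjusted p = 0.112). Cacna2d1, the binding target of gabapentin, had a log2 fold change of -0.08 (adjusted p = 0.145). Cacna2d3 lies 318.1 kb from Cacna1d on chromosome 14, on the same strand, and the signs of the 2 genes were opposite.

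In the TARP family only Cacng4 passed. It read 40.9, 39.6, 33.7, 36.4 and 39.6 CPM in control and 29.2, 29.5, 29.2 and 28.8 CPM in TETA. No libraries overlapped. The SD over the 4 TETA libraries was 0.281 CPM at 2378 counts in all, less than counting noise alone would give. The log2 fold change was -0.38 (SE 0.054, adjusted p = 0.000153). Cacng2, the stargazin gene, had 0.06, Cacng3 -0.06, Cacng5 0.04, Cacng7 0.02 and Cacng8 -0.05, and Cacng6 had -0.65 with 6 to 27 counts per library (adjusted p = 0.181).

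**Figure D3:**
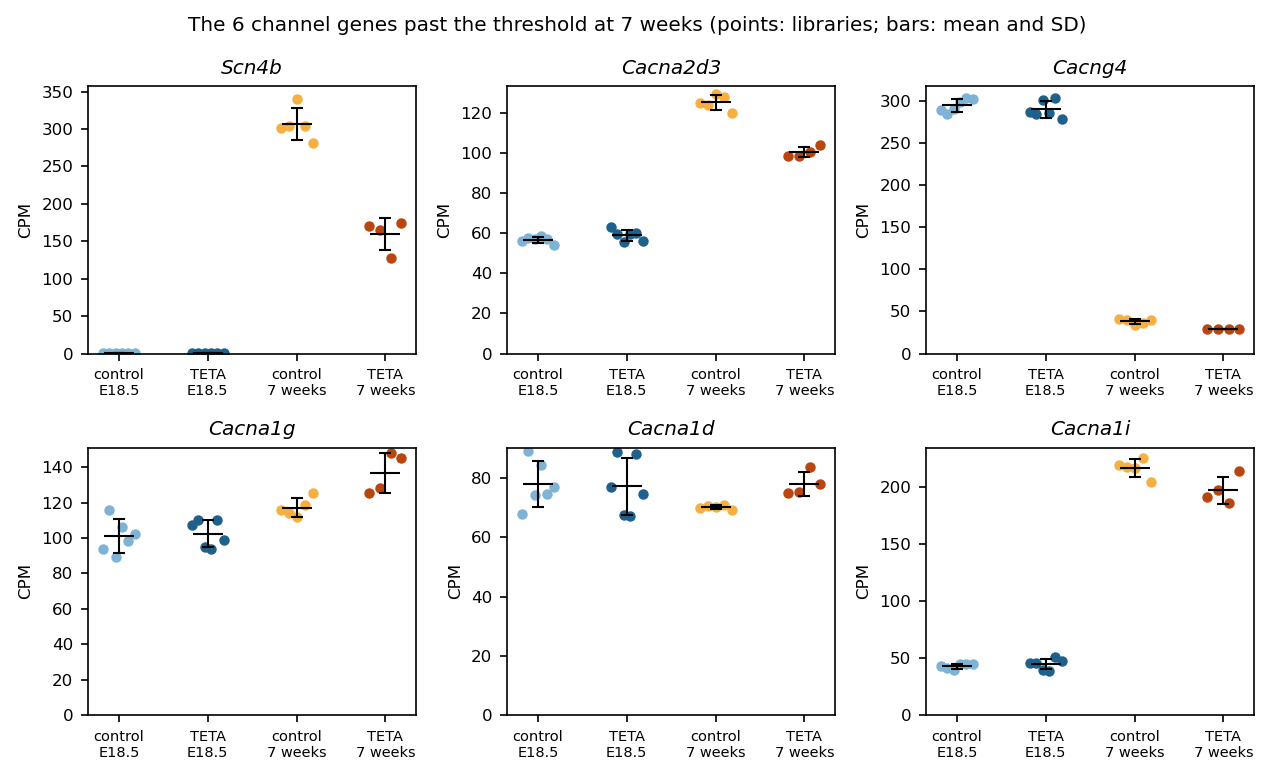
CPM of the 6 channel genes that passed at 7 weeks, in all 4 groups, with 1 point per library and bars for the mean and SD. Scn4b, Cacna2d3 and Cacng4 separate TETA from control at 7 weeks and Cacna1i overlaps, while in the E18.5 groups all 6 genes overlap.

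No calcium channel beta gene passed at 7 weeks. The 4 Cacnb genes had log2 fold changes between -0.03 (Cacnb4) and 0.05 (Cacnb3), with 95% bounds no wider than -0.12 and 0.12 for these intracellular subunits that traffic the channels. Among HCN genes, Hcn2 and Hcn3 had -0.06 and 0.01 and did not pass. Hcn4, the pacemaker gene of heart and thalamus, did not pass either and had -0.25 with a 95% interval of -0.53 to 0.03 (adjusted p = 0.270). Low counts left wide 95% intervals for Cacng6 (-1.26 to -0.04), Cacna1s (-1.21 to 0.01), Scn9a (-0.73 to 0.25), Cacna2d4 (-0.11 to 0.44) and Scn7a (-0.36 to 0.17). Cacna1f, Cacng1, Scn4a, Scn10a and Scn11a held too few counts to be tested.

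The upstream sequence is shown for 2 of the 6 genes, Cacna2d3 and Cacna1i. For both, RefSeq (build GRCm38.p6) gives a window of 250 bases before the start that holds no annotated exon base. Cacna1d was not examined for such a window. Capitals mark the GC box GGGCGG on either strand, the binding motif of SP factors. Also searched, on both strands, were the EGR motif GCGTGGGCG, the CRE motif TGACGTCA and TATAAA, none of which is in the 2 windows. The first is on chr14:29721865-29722114, minus strand, and the second on chr15:80286988-80287237, plus strand.
Cacna2d3: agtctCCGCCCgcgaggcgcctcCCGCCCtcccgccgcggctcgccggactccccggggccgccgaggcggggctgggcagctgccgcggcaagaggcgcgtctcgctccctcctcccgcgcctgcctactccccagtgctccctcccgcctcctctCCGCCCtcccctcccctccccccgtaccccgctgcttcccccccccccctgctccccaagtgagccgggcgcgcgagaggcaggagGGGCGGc
Cacna1i: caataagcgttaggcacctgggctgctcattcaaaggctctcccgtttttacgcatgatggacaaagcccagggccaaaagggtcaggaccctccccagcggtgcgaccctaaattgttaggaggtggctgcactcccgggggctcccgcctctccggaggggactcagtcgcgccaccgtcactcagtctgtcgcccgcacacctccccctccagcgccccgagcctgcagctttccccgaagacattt
Cacna2d3 has 4 GC boxes, 30 CpG pairs and 80.0% G and C, and Cacna1i has no GC box, 16 CpG pairs and 62.4% G and C. Over all 32851 RefSeq windows of this length the median was 6 CpG pairs and 52.4% G and C, and 32.74% held the GC box, 0.54% the EGR motif, 1.55% the CRE motif and 12.37% TATAAA. The channel genes matched 43 windows for 32 of 44 genes, and 17 of the 43 held the GC box.

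At E18.5 no channel gene that could be tested passed the threshold between TETA and control. Of 36 tested, 0 passed in edgeR and 0 with DESeq2, and over all 13794 genes tested 0 passed in edgeR, that is 0%, and 10 with DESeq2. At an unadjusted p under 0.05 there was 1 channel gene, against 4.78% of all genes. The lowest log2 fold change was -0.21 (Cacng1), and the median was 0.01, against -0.0027 over all genes, and the widest 95% bounds were -0.77 and 0.57. No channel gene separated the groups, as 0.319% of all genes tested did.

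Scn3b and Cacna1e, the R-type gene, had small unadjusted p-values at E18.5 (0.0727 and 0.133). Scn3b ran from 266 to 277 CPM in control (median 273) and from 268 to 303 in TETA (median 285), and its log2 fold change was 0.07 (SE 0.035, adjusted p = 0.996). Cacna1e ran from 189 to 275 CPM (median 229) and from 219 to 289 (median 253), and its log2 fold change was 0.12 (SE 0.077, adjusted p = 0.996). The groups overlapped in both.

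Among the subfamily medians at E18.5 were 0.03 for 7 sodium alpha genes, 0.04 for 3 alpha2delta genes, -0.0070 for 4 calcium beta genes, -0.0030 for 7 gamma genes and 0.0019 for 4 HCN genes. The T-type median was 0.02, the L-type 0.04 over 2 genes and the P/Q-, N- and R-type -0.0092. Of the 6 genes called at 7 weeks, 5 were tested at E18.5: Cacna2d3 had 0.06 (95% interval -0.02 to 0.13), Cacng4 -0.02 (-0.09 to 0.05), Cacna1g 0.02, Cacna1d -0.02 and Cacna1i 0.05. The genes too low to test were Scn4b, Scn4a, Scn7a, Scn11a, Cacna1f, Cacna1s, Cacna2d4 and Cacng6. The 15 striatum marker genes also gave 0 calls at this age, at 711 to 786 CPM in control and 715 to 754 in TETA.

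Whether the TETA effect differed between the ages was tested directly, as an effect at 7 weeks minus the effect at E18.5. Over 14660 genes 3.1% passed, and of 42 channel genes 2 did: Cacna2d3 (-0.37, SE 0.052, adjusted p = 2.59e-05) and Cacng4 (-0.36, SE 0.060, adjusted p = 0.0004). The difference for Scn4b was -0.85 with an SE of 0.39 (adjusted p = 0.274), since Scn4b held only 4 to 13 counts per library at E18.5. It was 0.20 for Cacna1g (adjusted p = 0.209), 0.17 for Cacna1d (0.392) and -0.19 for Cacna1i (0.199), so for these 4 genes an effect limited to 7 weeks was not shown. All 15 striatum markers passed this test as well, all lower, and their part in the Cacna2d3 and Cacng4 differences was not tested.

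Between the ages, control libraries differed far more than TETA and control did. All 41 channel genes tested passed between control at 7 weeks and control at E18.5, 27 higher and 14 lower at 7 weeks, against 89.5% of all 14375 genes tested, 44% higher and 45.5% lower. Of the channel genes, 20 were over 2-fold higher and 10 over 2-fold lower, against 22.8% and 17.8% of all genes. No library overlapped between the ages for 35 channel genes, against 80.2% of all genes. The median of the 41 was 1.00 on the log2 scale, against -0.02 over all genes. Age, count table and possibly brain region go together here and cannot be told apart. The 5 oligodendrocyte and 5 astrocyte markers, all higher at 7 weeks, move with them. So do the 4 microglia, 3 vessel smooth muscle and 4 choroid plexus markers tested, all higher, and the 5 blood markers, all lower. Of the 15 striatum markers 11 passed higher and 3 lower, and of the 11 cortical projection neuron markers 1 passed higher and 8 lower. The part of these marker lists was not tested. Without composition scaling the median over all genes moved to -0.18, and 27 channel genes still lay above 0 and 14 below.

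**Figure D4:**
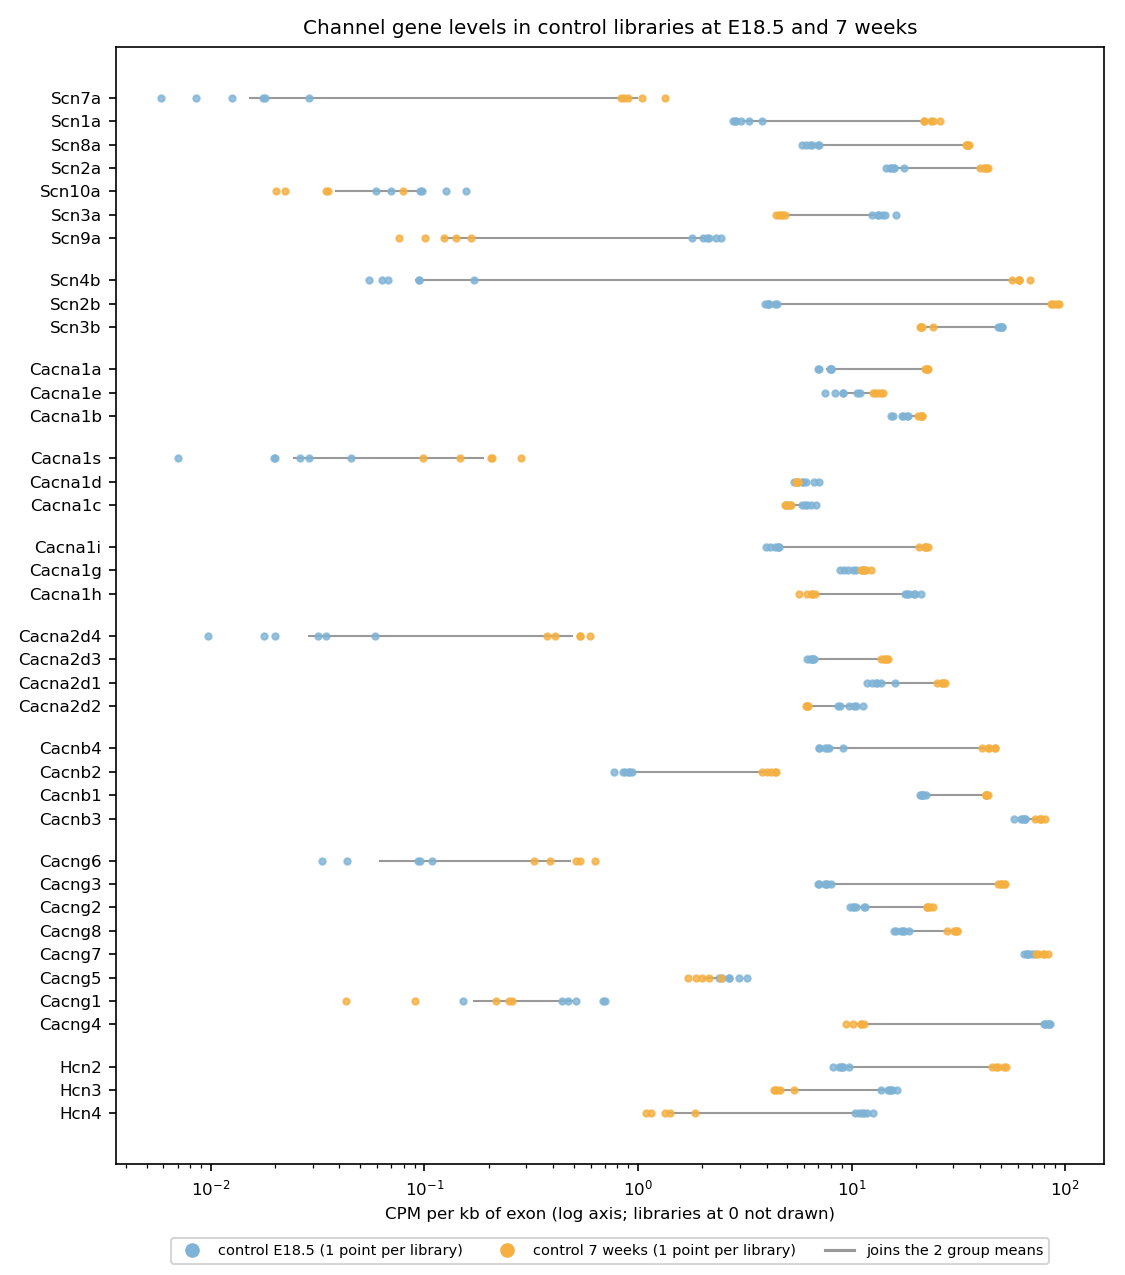
Levels of the channel genes drawn in the 6 control libraries at E18.5 and the 5 control libraries at 7 weeks, as CPM per kb of exon on a log axis, ordered by change within each subfamily; lines join the group means. Scn4b and Scn7a have the longest lines to the right and Scn9a, Hcn4 and Cacng4 run to the left.

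The 4 main brain sodium alpha genes traded places while Scn2a kept its share. Scn3a ran from 155 to 200.5 CPM at E18.5 (median 170.1) and read 58.3, 57.0, 60.7, 59.0 and 55.4 CPM at 7 weeks, a log2 fold change of -1.57. Scn2a, its neighbour at 53.1 kb on chromosome 2, went the other way. Scn1a ran from 30.9 to 42.5 CPM (median 33.0) and rose to 243 to 289 CPM, a log2 fold change of 2.93. Scn8a, which comes to dominate the axon initial segment, ran from 92.4 to 111 CPM (median 102) and rose to 539.7 to 560.2 CPM, a log2 fold change of 2.44. Scn2a ran from 184 to 225 CPM (median 197) and rose to 507 to 553 CPM, a log2 fold change of 1.43. None of the 4 overlapped between ages, with adjusted p from 2.40e-24 (Scn8a) to 8.92e-19 (Scn3a).

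Per kb of exon, the sum of these 4 genes was 39.2 ± 3.07 CPM per kb at E18.5 (SD, n = 6) and 105 ± 3.38 at 7 weeks (n = 5). Scn2a made up 40.06% ± 0.475 of it at E18.5 and 40.01% ± 0.681 at 7 weeks. Scn3a went from 35.5% ± 0.456 to 4.43% ± 0.0689, Scn8a from 16.5% ± 0.615 to 33.2% ± 0.835 and Scn1a from 7.93% ± 0.522 to 22.3% ± 0.945. The spread between libraries is small beside these shifts. TETA libraries had the same order of shares at each age, at 7 weeks 40.3% for Scn2a, 34.0% for Scn8a, 21.2% for Scn1a and 4.46% for Scn3a.

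**Figure D5:**
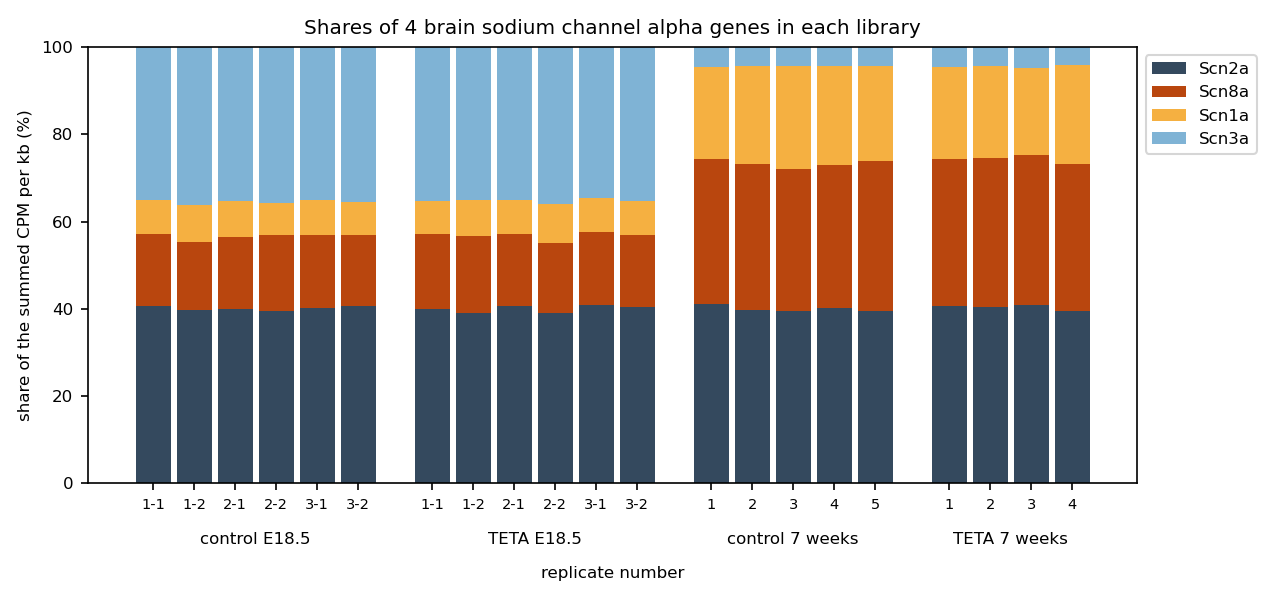
Share of Scn2a, Scn8a, Scn1a and Scn3a in their summed CPM per kb of exon, with 1 bar per library in the 4 groups. Scn2a averages 40.06% at E18.5 and 40.01% at 7 weeks in control, and Scn3a shrinks from 35.5% in E18.5 control libraries to 4.43% at 7 weeks.

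Other alpha genes changed as well. Scn9a, best known in pain-sensing neurons, ran from 22.9 to 31.3 CPM at E18.5 (median 27.1) and read 2.12, 0.9746, 1.58, 1.29 and 1.80 CPM at 7 weeks, the largest fall of any channel gene tested (17.4-fold; log2 fold change -4.12). Scn7a, whose product senses sodium and is expressed in glia, held 1 to 5 counts per control library at E18.5 and read 9.87, 7.66, 6.08, 6.29 and 6.59 CPM at 7 weeks, a log2 fold change of 5.95 with a 95% interval of 5.45 to 6.45. Scn10a fell by 1.28 on the log2 scale, at 3 to 19 counts per library. Scn4a and Scn11a were too low to test. Scn1a, Scn9a and Scn7a lie in a row on chromosome 2, with gaps of 39.2 kb and 38.5 kb, and Scn9a fell between neighbours that rose.

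Among sodium beta genes, Scn4b had the largest rise of any channel gene tested. It ran from 0.275 to 0.852 CPM at E18.5 (median 0.404) and from 281 to 340.5 CPM at 7 weeks, a 695-fold rise (log2 fold change 9.44, SE 0.094). Scn2b rose 21.7-fold, from a median of 19.0 to a median of 419 CPM. Scn3b, the beta gene of embryonic neurons, fell from 266 to 277 CPM (median 273) to 132, 115, 115, 117 and 115 CPM, a log2 fold change of -1.19. Per kb of exon, Scn3b made up 82.4% ± 0.895 of the 4 genes at E18.5 and 5.12% ± 0.367 at 7 weeks.

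The 3 P/Q-, N- and R-type alpha1 genes rose, where 44% of all genes tested rose. Cacna1a, the P/Q-type gene of fast synapses, rose by 1.56 on the log2 scale, Cacna1e by 0.54 and Cacna1b by 0.32. Cacna1e ran from 189 to 275 CPM at E18.5 (median 229) and read 348, 319.5, 326, 354 and 335 CPM at 7 weeks, with no overlap. The L-type genes Cacna1c and Cacna1d fell by 0.27 and 0.14. The call for Cacna1d was lost with DESeq2 (-0.11, adjusted p = 0.0734) and without E18.5 control replicate 1-2 (-0.10, 0.0539) or 2-2 (-0.11, 0.0644), and with the TETA libraries in place of the controls its value was 0.03 (0.637). Cacna1s rose from 1 to 7 counts per library to 14 to 42, a log2 fold change of 2.90, and 19.98% of its exon length is covered by the antisense gene Gm37759. Cacna1f, the retinal gene, was too low to test.

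The T-type genes changed order. Cacna1h fell by 1.59 and Cacna1i rose by 2.35 on the log2 scale, and per kb of exon Cacna1h went from 57.3% ± 2.06 to 15.8% ± 0.867 of the 3 genes while Cacna1i went from 13.0% ± 0.558 to 55.2% ± 1.78. Cacna1g stayed near its share, 29.7% ± 2.23 at E18.5 and 29.0% ± 1.17 at 7 weeks. In CPM, Cacna1g ran from 89.1 to 116 at E18.5 (median 100.3) and from 112 to 125 at 7 weeks. These ranges overlap, and the log2 fold change of 0.23 (adjusted p = 0.000308) was 0.08 without composition scaling (adjusted p = 0.160).

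Of the auxiliary calcium channel genes, 7 of 8 rose and Cacna2d2 fell, where 44% of all genes tested rose and 45.5% fell. The 4 beta genes all rose, Cacnb4 by 2.55, Cacnb2 by 2.26, Cacnb1 by 1.00 and Cacnb3 by 0.29 on the log2 scale, and Cacnb3 kept the largest share per kb (67.6% ± 1.67, then 45.5% ± 1.32). For Cacnb4, 16.0% of the exon length is covered on the opposite strand by A430018G15Rik. Among alpha2delta genes, Cacna2d1 ran from 146 to 199 CPM at E18.5 (median 163) and read 329, 338, 338, 328 and 311 CPM at 7 weeks, a log2 fold change of 1.00. Cacna2d3 rose by 1.15 and the scarce Cacna2d4 by 4.05, whereas Cacna2d2 fell by 0.66.

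TARP genes were exchanged at a nearly level sum. The 6 TARP genes summed to 188 ± 5.28 CPM per kb at E18.5 and 194 ± 4.66 at 7 weeks. Cacng4, a TARP of developing brain, ran from 285 to 303 CPM at E18.5 (median 294) and read 40.9, 39.6, 33.7, 36.4 and 39.6 CPM at 7 weeks, a 7.66-fold fall that took it from 43.9% ± 0.482 of the sum to 5.47% ± 0.302. Cacng3, a TARP of adult cortex, ran from 19.4 to 22.2 CPM (median 20.96) and read 145, 144, 139, 138 and 135 CPM at 7 weeks, a 6.82-fold rise to 25.995% ± 0.580. Cacng2 rose by 1.13, Cacng8 by 0.83 and Cacng7 by 0.22 on the log2 scale, Cacng7 without passing when composition scaling was left out (0.07, adjusted p = 0.107). Cacng5 fell by 0.41, the skeletal muscle gamma gene Cacng1 fell by 1.48, and Cacng6 rose by 2.92, the last 2 at no more than 27 counts per library. Cacng1 was too low to test when any of the E18.5 control replicates 1-2, 2-1, 2-2, 3-1 and 3-2 was left out.

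HCN genes moved in both directions. Hcn2, the main HCN gene of thalamus and broad brain regions, ran from 26.1 to 31.2 CPM at E18.5 (median 28.7) and read 151, 145, 154, 164 and 169 CPM at 7 weeks, a log2 fold change of 2.46. Hcn4 ran from 63.7 to 77.5 CPM (median 68.9) and read 11.3, 6.69, 8.17, 8.60 and 7.04 CPM, a log2 fold change of -3.05. Hcn3 fell by 1.69, with 17.1% of its exon length covered on the opposite strand by Pklr. Per kb of exon, Hcn3 and Hcn4 made up 41.3% ± 1.096 and 31.1% ± 1.51 of the 4 genes at E18.5, and Hcn2 80.7% ± 1.63 at 7 weeks.

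The upstream windows of the HCN pair that moved farthest apart, Hcn2 (chr10:79716384-79716633, plus strand) and Hcn4 (chr9:58822699-58822948, plus strand), are shown from RefSeq (GRCm38.p6), with the GC box again in capitals.
Hcn2: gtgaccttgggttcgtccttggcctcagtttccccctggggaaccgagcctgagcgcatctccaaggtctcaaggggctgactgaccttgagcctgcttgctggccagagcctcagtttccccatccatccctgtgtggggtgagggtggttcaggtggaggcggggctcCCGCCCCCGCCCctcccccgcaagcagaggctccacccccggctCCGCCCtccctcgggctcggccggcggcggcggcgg
Hcn4: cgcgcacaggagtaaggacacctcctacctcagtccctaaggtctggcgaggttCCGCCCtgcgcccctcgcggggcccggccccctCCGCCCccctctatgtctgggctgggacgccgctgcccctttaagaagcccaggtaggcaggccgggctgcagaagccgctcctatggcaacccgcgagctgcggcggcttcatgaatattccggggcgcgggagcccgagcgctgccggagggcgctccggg
Both hold it, 3 times in Hcn2 and 2 times in Hcn4, with 16 and 25 CpG pairs and 70.4% and 71.2% G and C. Neither window holds the EGR, CRE or TATAAA letters.

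Levels between genes can be set side by side per kb of exon. At E18.5 the highest were Cacng4 (82.4 ± 2.15 CPM per kb), Cacng7 (67.4 ± 2.63), Cacnb3 (62.9 ± 2.82) and Scn3b (49.9 ± 0.756; SD, n = 6). At 7 weeks, high levels were those of Scn2b (89.8 ± 3.37), Cacng7 (77.9 ± 4.34), Cacnb3 (76.3 ± 2.92) and Scn4b (61.5 ± 4.29; SD, n = 5). Cacng7 and Cacnb3 lay within their SDs of each other at 7 weeks. In TETA at 7 weeks Scn4b stood at 32.0 ± 4.28 CPM per kb (n = 4).

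A list of 38 partner genes, such as fibroblast growth factor homologs, ankyrins, calmodulins, AMPA receptor subunits and ryanodine receptors, was described beside the channel genes. At E18.5 none of the 36 tested passed in edgeR, with a median of 0.0076. At 7 weeks 4 of 38 passed between TETA and control, where 9.96% of all genes tested passed: Rimbp2, which ties calcium channels to release sites, rose by 0.27 (adjusted p = 0.000217), the calcium release channel genes Ryr1 and Ryr2 rose by 0.25 (0.00427) and 0.13 (0.0316), and Rem2, a GTPase that restrains calcium channels, fell by 0.73 (0.00209). The median of the 38 was -0.02. Rem2 and Rimbp2 also passed the test of the difference between ages (-0.84 and 0.27). Between control libraries, 23 of 37 tested were higher at 7 weeks and 11 lower, against 44% and 45.5% of all genes tested. Among them, Pex5l, which encodes the HCN partner protein TRIP8b, rose by 4.13 on the log2 scale, from 12.6 to 219 CPM.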

How the data were processed

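The authors deposited raw read counts (whole numbers) by gene symbol in separate E18.5 and 7-week tables whose columns are libraries, per the file headers. A stranded kit with poly(A) selection was used, per the labels' protocols. STAR 2.7.1a, featureCounts 2.0.1 and the build mm10 are named in the submitters' processing notes; their settings, the annotation and the strand setting are not given in the sources used here. Every column matched 1 library. Depth is 14678265 to 24308555 counts per library, and no replicate pair agreed within counting noise (lowest chi-square per gene 2.30).

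In the E18.5 table, genes at 0 in control replicate 1-1 whose other counts were all multiples of 11 were divided by 11 (1940 genes, 0 of them among those tested at E18.5). Each comparison was fitted on all genes with filterByExpr (minimum count 10), TMM composition scaling and edgeR 4.0.16's quasi-likelihood test in R 4.3.3, with Benjamini-Hochberg adjustment over all genes tested and a threshold of 0.05. TETA was compared with control at each age alone; the ages and the difference of the TETA effects were fitted on the joined tables. Each SE was derived from the log2 fold change and the root of its F statistic. Levels are CPM with TMM over all 21 libraries, and CPM per kb uses GENCODE M21 union exon length. Alternatives were DESeq2 1.42.0, limma 3.58.1 voom with library quality weights, other filters and scalings, no abundance trend, leaving out each library, a replicate block, the E18.5 libraries summed by the first part of their number, counts as deposited, TETA libraries in place of controls, a fit on all 4 groups, and a striatum score as a covariate. The fits were tested on simulated counts that held changes larger than any TETA difference called in a channel gene. Smaller changes were not simulated.

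The genes given in full are those past the threshold between TETA and control at either age, with the 3 smallest p-values at an age where fewer than 3 pass; for the difference of effects they are those past the threshold. Between the ages they are 14 fixed genes (Scn1a, Scn2a, Scn3a, Scn8a, Scn4b, Scn3b, Cacna1g, Cacna1e, Cacng4, Cacng3, Cacna2d1, Hcn2 and Hcn4 among them) with the 3 largest rises and the 3 largest falls. Other channel genes are accounted for by subfamily, and values given for them were chosen after they were seen. Some genes of the set enter the counts, medians and sums and are otherwise not reported here or drawn. The channel genes and the lists were chosen with earlier results of these data known.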

Additional observations from a re-analysis of the deposited data

Results flagged for a closer look

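In 5 of 84 groups of channel gene values a library stood far from the rest of its group, where chance gives about 1 in 20 groups. Cacna2d1 was 327 CPM in TETA replicate 4 at 7 weeks against 302 to 305 in the other TETA libraries. Hcn2 was 139 CPM in TETA replicate 3 at 7 weeks against 151 to 153. Scn3b was 132 CPM in control replicate 1 at 7 weeks against 115 to 117. At low counts, Scn4b was 0.852 CPM in E18.5 control replicate 1-2 against 0.275 to 0.472, and Scn7a was 0.236 CPM in E18.5 TETA replicate 2-1 against 0.0392 to 0.0988.

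For 2 genes the TETA effect differed between the ages by a test of the difference itself (edgeR quasi-likelihood, adjusted over all genes). For Cacna2d3 the effect at 7 weeks minus that at E18.5 was -0.374 on the log2 scale, and for Cacng4 it was -0.365.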

How the results depend on the processing

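At E18.5 the count of channel genes that passed was 0 under each of 23 alternatives, the replicate block included (0 with the full number and 0 with the first part). At 7 weeks the count of 6 became 5 to 8 under 16 alternatives (5 to 8 when a library was left out, 7 with the replicate block) and 0 with the striatum score as a covariate. In that fit, which passed 0 genes over the whole table (701 at an unadjusted p under 0.05), Cacna1d (-0.085), Cacna1g (-0.26) and Cacna1i (0.043) changed sign and Scn4b (-0.17), Cacna2d3 (-0.26) and Cacng4 (-0.48) missed the threshold; the score and the group cannot be told apart. Scn4b, Cacna2d3, Cacng4 and Cacna1g passed under the other 16, and Cacna1i under 7 of them. Scn1a passed with the replicate block (adjusted p = 0.0383), with quality weights (0.0371) and with no filter (0.0330). Between the ages 35 to 42 channel genes passed (39 to 41 with a library left out), and for the difference of effects 2 or 3, the 3 without TETA replicate 3 at 7 weeks, when Cacng1 was added with 0 counts in each TETA library left at that age. Whether the replicate numbers shared by the groups pair the libraries is not known. Deviations of same-numbered libraries had r of -0.33 to 0.33 at E18.5 (mean 0.029, 6 pairs). At 7 weeks r was -0.11 to -0.036 (mean -0.058, 4 pairs). So few pairs cannot settle it. Without composition scaling the share of calls that were higher went from 57.0% to 67.6% at 7 weeks and from 54.0% to 72.0% for the difference of effects. Without TETA replicate 3, 927 genes in place of 1418 passed at 7 weeks and 290 in place of 454 for the difference of effects. Depth limits Scn4a, Scn11a and Cacna1f, at 13 counts or fewer in every library.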
